A study of Mus musculus with 6 samples.

Results

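The transcripts described here are the mouse genes named for lying on the opposite strand of another gene. They were chosen by spelling: a symbol ending in os, or in os and digits, whose stem is itself a listed symbol, as Grin1os is to Grin1. Of the 24421 genes listed, 154 met this rule (0.631%), and they name 147 parent genes, 7 of which have several os transcripts. The libraries are of RNA from mice of 1 year, 3 labelled wild type (WT) and 3 labelled STIM1 knockout (KO), with the Purkinje neuron layer and the molecular layer of the cerebellum microdissected together. STIM1 is the calcium sensor of the endoplasmic reticulum that opens store-operated channels. The labels give no strain, and do not say which part of the gene was deleted or in which cells. The series text calls the 3 samples of a genotype biological replicates.

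Opposite-strand transcripts start from the other DNA strand of a gene, inside it or next to it, and so hold a sequence complementary to the parent RNA wherever their exons overlap. Many are noncoding, and a few are ordinary coding genes named only for their position. Some are known to act on the parent, such as the transcript opposite Uchl1, which promotes translation of the Uchl1 mRNA, and Tsix, which represses Xist. A read from a stretch that both transcripts share is given to one or the other only by its strand, so the counting must know which strand the library kit keeps. The sources used here state neither the strandedness of the kit nor the strand setting of the counting. Which of the 2 RNAs the counts of an overlapping pair come from was not tested, and the values below are those of the deposited symbols.

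The 6 libraries held 645994 to 764839 counts in genes, 1.16% to 1.23% of the uniquely aligned reads, and 98.8% of those reads were assigned to no gene. Stim1 was counted 7, 21 and 3 times in WT replicates 1 to 3 and 4, 3 and 2 times in KO replicates 1 to 3, too few to check the genotype. Of 8 Purkinje cell markers, 7 averaged 10 or more counts per library. The summed level of the 8 was 2457 to 3085 CPM (counts per 1e6 gene counts, TMM-scaled) in WT and 1852 to 2475 CPM in KO. Itpr1 made up most of that sum, at a mean of 1729 CPM in WT and 1253 CPM in KO. Pcp2 (81.6 and 97.0 CPM), Ppp1r17 and Slc1a6 averaged higher in KO, and the other Purkinje markers lower. The summed level of 5 molecular layer interneuron markers was 404 to 448 CPM in WT and 287 to 351 CPM in KO. All 5 averaged lower in KO, in CPM Pvalb the most (196 and 119) and Sorcs3 the least (145 and 143). The summed level of 6 granule cell markers was 192 to 234 CPM in WT and 189 to 251 CPM in KO. Glial markers were present as well: all 6 astrocyte and Bergmann glia markers averaged 10 or more counts. Their summed level was 651 to 759 CPM in WT and 416 to 611 CPM in KO. Slc1a3 (368 and 299 CPM) and S100b (222 and 133 CPM) made up most of it. Gdf10 and Aqp4 averaged higher in KO and the others of the 6 lower. None of 4 microglia, 3 endothelial and 3 choroid plexus markers averaged 10 or more counts. No marker passed the test of KO against WT described below: the lowest adjusted p of all genes was 0.917 by edgeR's quasi-likelihood test. For any marker that did differ, fewer cells of a type and less RNA per cell cannot be told apart in such bulk tissue. Tsix was counted 3053, 2987 and 2 times in WT and 3265, 3019 and 1 in KO, against 139, 79 and 10 and then 100, 108 and 4 for Xist. In both genotypes replicate 3 was thus far below replicates 1 and 2 for both genes. Whether the replicates differ in sex was not tested.

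The geometry of the pairs can be read in 3 stretches of GRCm38 from GENCODE. They were chosen because each os transcript runs from parent coding exon into parent intron, and because the 3 pairs differ in which gene held more counts: Grin1os and Kcnmb4os2 exceeded their parents and Zfhx2os did not. Capitals mark the bases that lie opposite coding exon of the parent, and lower case those opposite its intron. The Grin1os stretch lies at chr2:25296620-25296739 on the plus strand, with 90 of 120 bases opposite coding exon, and the complement of those bases occurs in 8 annotated Grin1 transcripts. The Kcnmb4os2 stretch lies at chr10:116473163-116473282 on the plus strand, with 97 bases opposite coding exon. The Zfhx2os stretch lies at chr14:55072517-55072636 on the plus strand, with 90 bases opposite coding exon. In each, the 2 lower-case bases beside the capitals are the parent's splice dinucleotide read from the other strand: the AG acceptor for Grin1 and the GT donor for Kcnmb4 and Zfhx2.
Grin1os: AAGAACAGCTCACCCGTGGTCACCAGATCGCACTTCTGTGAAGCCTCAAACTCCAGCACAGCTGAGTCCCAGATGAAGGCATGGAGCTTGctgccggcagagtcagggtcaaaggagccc
Grin1, other strand, coding bases: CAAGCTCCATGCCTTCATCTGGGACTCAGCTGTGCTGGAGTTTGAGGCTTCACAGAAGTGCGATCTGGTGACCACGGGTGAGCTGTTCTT
Kcnmb4os2: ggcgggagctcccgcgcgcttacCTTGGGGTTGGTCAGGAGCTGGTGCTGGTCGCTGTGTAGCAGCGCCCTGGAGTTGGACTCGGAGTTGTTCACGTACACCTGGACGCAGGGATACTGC
Kcnmb4, other strand, coding bases: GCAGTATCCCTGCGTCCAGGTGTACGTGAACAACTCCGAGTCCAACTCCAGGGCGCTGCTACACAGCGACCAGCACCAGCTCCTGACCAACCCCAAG
Zfhx2os: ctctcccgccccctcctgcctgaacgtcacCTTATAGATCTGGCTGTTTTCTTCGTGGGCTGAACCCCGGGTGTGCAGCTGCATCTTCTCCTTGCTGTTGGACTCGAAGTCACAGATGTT
Zfhx2, other strand, coding bases: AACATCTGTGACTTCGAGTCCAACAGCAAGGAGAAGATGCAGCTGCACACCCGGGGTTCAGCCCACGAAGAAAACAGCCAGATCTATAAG

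Together the os transcripts held more counts than their parents in every library, and a handful of them held most. They took 3.32% to 3.57% of all gene counts in a library, with a mean of 3.41% ± 0.0811 (SD, n = 3) in WT and 3.48% ± 0.0784 (SD, n = 3) in KO, and their 147 parents took 0.506% to 0.570%. Of the 154, 118 had a count in any library and 36 had none. Grin1os alone held 32.2% of all os counts and the 10 largest held 79.4%. By count, not corrected for length, Grin1os ranked 5 among all genes, and 7 os transcripts stood among the 100 genes of largest count and 13 among the 500.

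A pair was compared where os transcript and parent summed to 60 or more counts over the 6 libraries, which 85 pairs did. Dnmt3aos with Dnmt3a, at 60 counts, was just inside and Bcas3os1 with Bcas3, at 57, just outside. The os transcript held more counts than its parent in every library in 48 pairs, fewer in every library in 29, and the order varied in 8. The median over pairs of the log2 ratio of os to parent counts, with 0.5 added to each, was 1.78, and pairs ranged from -9.50 to 8.37. On the mean of this log2 ratio over libraries, the os transcript was 10-fold or more above its parent in 34 pairs. The parent was 10-fold or more above the os transcript in 15. Per kilobase of exon, which could be had for 81 pairs, the os transcript was higher in 60 on the mean over libraries and the median log2 ratio was 3.21. Among the 69 pairs below the minimum the parent had the larger summed count in 41, the os transcript in 16, and 12 were equal, 10 of them with no count in either gene.

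**Figure D1:**
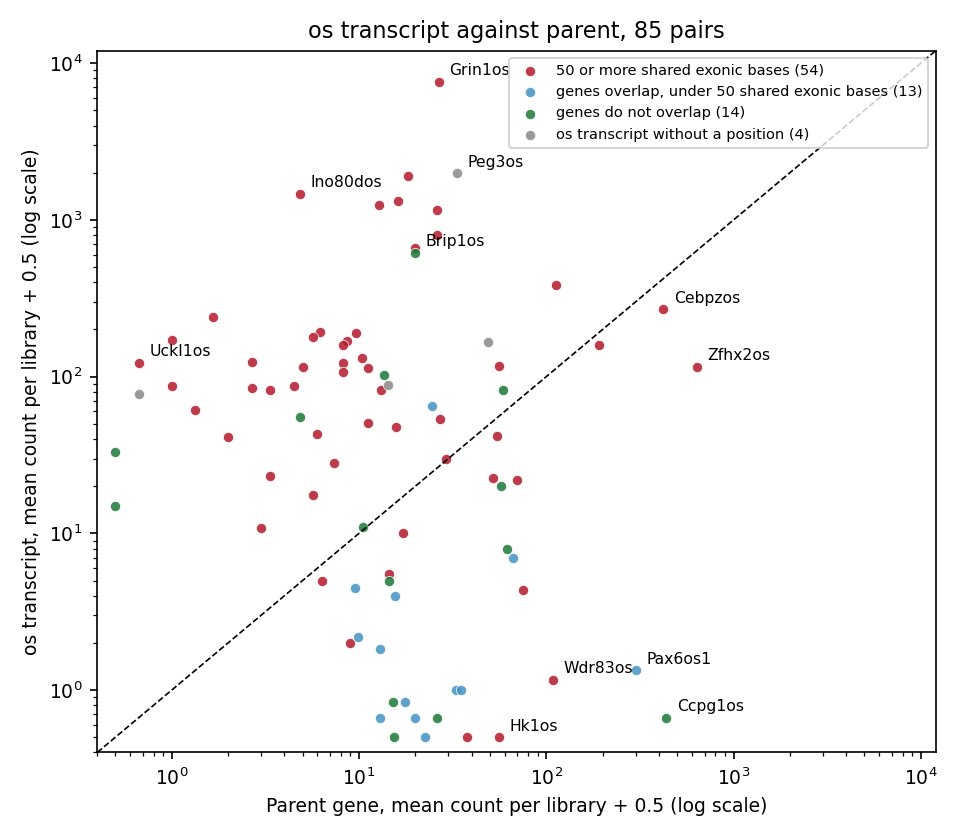
Mean count per library of the os transcript (vertical) against that of its parent (horizontal), each plus 0.5 and on log scales, for the 85 pairs of 60 or more summed counts, coloured by how the genes overlap. Points above the dashed line have more os than parent counts; Grin1os and Ino80dos lie far above it, and Ccpg1os, Pax6os1 and Wdr83os far below.

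Among parents that encode receptors, channels, synaptic and secretory proteins of neurons, the os symbol was more often the larger, as over all pairs. There were 17 such os transcripts and 14 pairs with enough counts: the os transcript was above its parent in every library in 9, below in 4 and mixed in 1. Over all 85 pairs it was above in every library in 48. Grin1 encodes the obligatory subunit of the NMDA glutamate receptor. Grin1os (chromosome 2, 25291220 to 25298925, plus strand) was counted 7381, 7111 and 7543 times in WT replicates 1 to 3 and 8923, 8127 and 6711 times in KO replicates 1 to 3. Grin1 was counted 32, 26 and 24 times in WT and 41, 13 and 21 times in KO. No library of either genotype came near the reverse order. The summed counts differed 291.7-fold, the log2 ratio averaged 8.24 ± 0.54 (SD over 6 libraries), and Grin1os took from 99.54% (Wilson 95% interval 99.38% to 99.66%) to 99.84% (99.73% to 99.91%) of the pair's counts in a library. Such intervals cover counting error only. Per kilobase of exon, Grin1os averaged 2640 counts and Grin1 2.70. Of the 2891 exonic bases of Grin1os, 1307 lie opposite Grin1 exon, 1184 of them coding.

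Kcnmb4 encodes the brain beta subunit of the BK calcium-activated potassium channel and has several os transcripts. Kcnmb4os1, inside the gene, was counted 909, 1075 and 1284 times in WT and 1222, 1231 and 1209 times in KO. Kcnmb4os2, which overlaps the start of Kcnmb4, was counted 552, 887 and 901 times in WT and 833, 830 and 827 times in KO. Kcnmb4 itself was counted 16, 24 and 24 times in WT and 33, 20 and 37 times in KO, so its highest library stayed far below the lowest of either os transcript. WT replicate 1, the library with the fewest gene counts, was the lowest for all 3 of these genes. Per kilobase, Kcnmb4os1 averaged 1402 counts, Kcnmb4os2 398 and Kcnmb4 7.72.

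Chn1 encodes alpha-chimaerin, a Rac regulator in axon guidance. Chn1os3 was counted 1700, 2168 and 1991 times in WT and 1508, 2277 and 1834 times in KO, while Chn1 had 20, 18 and 26 in WT and 10, 17 and 16 in KO. The fold between the summed counts was 107.3. The other neuronal pairs with the os symbol above differed less. The log2 ratio averaged 5.49 ± 1.41 (SD over 6 libraries) for Uchl1os opposite the neuronal ubiquitin hydrolase, 4.32 ± 0.39 for Atcayos opposite the gene of the ataxia protein caytaxin, 3.78 ± 0.82 for Pcsk2os2 opposite prohormone convertase 2, and 1.04 ± 0.54 for Kcnd3os opposite the Kv4.3 channel. In the other direction, Gad1, which encodes a GABA-synthesising enzyme, had 394 summed counts against 39 for Gad1os, and Ptprt, a receptor tyrosine phosphatase, had 132 against 0 for Ptprtos. With 3 counts over the 6 libraries taken as the limit of a summed count of 0, Ptprt was at least 44-fold above Ptprtos.

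**Figure D2:**
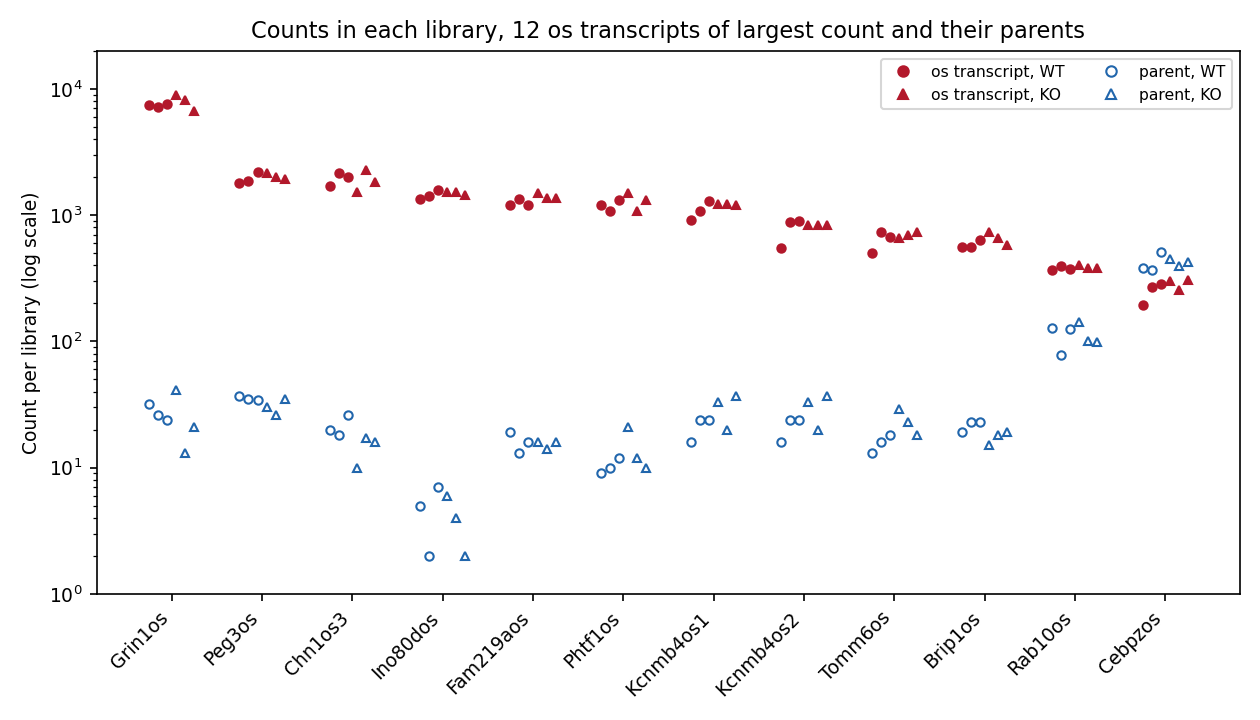
Counts in each library (log scale) for the 12 os transcripts of largest count, filled, and for their parents, open, with WT as circles and KO as triangles. In 11 of the 12 the os symbol lies above its parent in all 6 libraries; Cebpzos lies below Cebpz in all 6.

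Os transcripts of parents with chromatin and RNA roles split by pair. Ino80d encodes a subunit of the INO80 chromatin remodelling complex; Ino80dos was counted 1331, 1414 and 1577 times in WT and 1531, 1510 and 1447 times in KO. Ino80d was counted 5, 2 and 7 times in WT and 6, 4 and 2 times in KO. On the mean log2 ratio defined above, which includes the added count, this pair was the highest of the 85, at 8.37 ± 0.65. By plain share of the pair's counts it was not the highest: Dbhos, Slc7a6os, Uckl1os, Msx1os and Scpep1os had higher os shares. Brip1os, next to the gene of a DNA repair helicase, had 31.7 times the summed counts of Brip1 although the genes do not overlap and start 176 bases apart. Its exons lie opposite those of 2 other genes, over 512 bases of Ints2 and 800 of Med13, and those genes had 239 and 150 summed counts against 3712. Srrm4os had 1151 summed counts and Srrm4, a splicing factor of neurons, 34. Of the 8 pairs of this group that could be read, 3 had the os transcript above in every library and 4 below. Rbm3os and Rbm3, a cold-inducible RNA-binding protein, had 175 and 172 summed counts and no fixed order. Med9os had no count beside 89 for Med9, a Mediator subunit.

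The enzymes of lipid, sugar and small-molecule metabolism had the os transcript above in every library in 7 of 8 pairs. Acss2os, opposite the acetyl-CoA synthetase gene, was counted 162, 149 and 173 times in WT and 207, 182 and 204 times in KO, and Acss2 had 10, 2 and 4 in WT and 8, 4 and 3 in KO. Uckl1os had 734 summed counts and its parent, a uridine-cytidine kinase relative, 1. Far1os had 783 and Far1, which makes fatty alcohols for ether lipids, 59. Dbhos had 23 to 41 counts per library, and Dbh, which makes noradrenaline from dopamine, had none in any library. With 3 counts over the 6 libraries as the limit, Dbhos was at least 65-fold above. Dgke, a diacylglycerol kinase, was the exception, with 222 summed counts and none for Dgkeos.

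For mitochondrial proteins the order again went both ways. Tomm6os was counted 502, 733 and 674 times in WT and 654, 699 and 733 times in KO, beside 13, 16 and 18 and then 29, 23 and 18 for Tomm6, a small subunit of the outer membrane import pore. Ppif, which encodes cyclophilin D, had 0 to 3 counts per library and Ppifos 196 to 296. Hk1, the brain hexokinase that binds mitochondria, had 46 to 70 counts per library and Hk1os none, although 157 of their exonic bases are shared. In this group 3 of 5 pairs had the os transcript above and 2 below. Rab10, a small GTPase of vesicle transport, was among the parents of larger count. Rab10os was counted 367, 398 and 372 times in WT and 400, 379 and 378 times in KO. Rab10 had 128, 78 and 125 in WT and 141, 101 and 99 in KO. Outside these groups, other pairs with large os counts were Peg3os with the imprinted zinc finger gene Peg3 (11930 and 197 summed counts), Fam219aos with Fam219a (7961 and 94) and Phtf1os with Phtf1 (7476 and 74). Further ones were Ube4bos3 with the ubiquitin ligase gene Ube4b (1140 and 55), Scpep1os with the carboxypeptidase gene Scpep1 (1023 and 3) and Slain1os with the microtubule-tip gene Slain1 (744 and 13).

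Among the groups of parents described, developmental transcription factors had the largest share of os symbols without a count. Of the 25 os transcripts of 24 such parents, 13 had no count in any library, among them those of Hoxa11, Hoxb5, Hoxd3, Otx2 and Wt1. In the 8 pairs with enough counts the os transcript was above in 3, below in 4 and mixed in 1. Pax6, the paired-box factor that granule cells express, was counted 275, 296 and 292 times in WT and 345, 338 and 252 times in KO, and Pax6os1 had 1, 1 and 0 and then 3, 0 and 0. Zfhx2, a zinc finger homeobox gene, was counted 544, 401 and 905 times in WT and 800, 798 and 386 times in KO, and Zfhx2os had 101, 123 and 126 and then 116, 101 and 126. Zfhx2 was the larger in every library although 3255 bases of exon are shared, 2482 of them coding, and its own counts varied between libraries more than those of Zfhx2os. Zeb2os and Zeb2, a factor of neural crest and glial development, were nearly level by count, at 946 and 1146, while per kilobase Zeb2os averaged 79.2 and Zeb2 9.58. Msx1os was counted 34, 73 and 83 times in WT and 168, 62 and 42 times in KO against 1 count in all for Msx1, a homeobox gene. Nkx2-2os had 998 summed counts and Nkx2-2, a factor of the oligodendrocyte lineage, 290.

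The order within a pair differed by the arrangement of the 2 genes. In the annotation 148 os transcripts could be placed, all of them on the strand opposite the parent, and 6 could not (Dlx6os1, G6bos, Ggnbp2os, Msx1os, Nkx2-2os and Peg3os). Among the 54 read pairs that share 50 or more exonic bases, the os transcript was above in every library in 38 and below in 11, with a median log2 ratio of 3.55. Among the 13 whose genes overlap with fewer shared bases, it was above in 1 and below in 11, with a median of -4.35. Among the 14 that do not overlap, it was above in 5 and below in 7, with a median of -0.72. Per kilobase the medians were 4.90, -1.25 and 1.07 in the same order, so the sign of the last depended on the length correction. By position, os transcripts over the parent's end were above in 10 of 12 pairs, those over its start in 13 of 23, those inside the parent in 15 of 30 and those head to head without overlap in 3 of 11. Pairs share libraries and are not replicates, so these counts are given without a test.

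**Figure D3:**
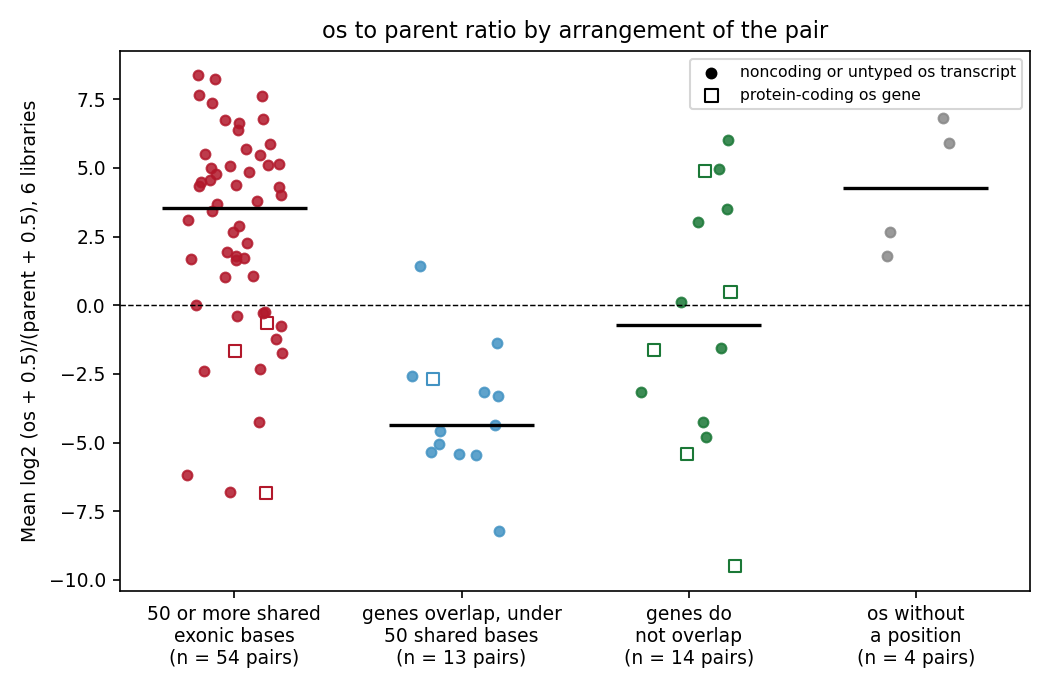
Mean over 6 libraries of the log2 ratio of os to parent counts, with 0.5 added to each, 1 point per pair, by how the genes overlap; black bars are medians, filled circles noncoding or untyped os transcripts and open squares protein-coding os genes. Pairs with shared exon centre on 3.55 and overlapping pairs with fewer than 50 shared bases on -4.35, with wide spread in every class.

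The os symbols that are themselves protein-coding genes were mostly below their parents by count, but not per kilobase. Of the 148 placed, 10 are annotated as protein coding, and 9 of their pairs had enough counts: the os gene was above in every library in 1, below in 7 and mixed in 1. Per kilobase 5 of the 9 lay above on the mean over libraries, with a median log2 ratio of 0.08. All 3 that share exon with the parent lay below it by count and 2 of them above it per kilobase. Cebpzos was counted 193, 270 and 284 times in WT and 302, 254 and 304 times in KO, and Cebpz, a CCAAT-binding factor relative, had 381, 370 and 506 and then 446, 395 and 427. Wdr83os had 4 counts in all and Wdr83, a scaffold protein gene, 89 to 117 per library, with 539 exonic bases shared. Toporsos had 129 summed counts and Topors, a ubiquitin and SUMO ligase, 417. Per kilobase the order of Cebpzos and Cebpz turned, at 237 and 90.3 counts, and Toporsos and Topors were level, at 18.7 and 18.0. Ccpg1os and Ccpg1, an autophagy receptor of the endoplasmic reticulum, start 46 bases apart without overlap, and had 1 and 2621 summed counts. Ccpg1 does share 2170 exonic bases with another gene on its opposite strand, Pigb. The mean log2 ratio of Ccpg1os to Ccpg1, which includes the added count, was the lowest of the 85 pairs. By plain share of the pair's counts Hk1os, Dgkeos, Ptprtos and Med9os, which had no count, were lower. Slc7a6os, which lies tail to tail with the amino acid transporter gene Slc7a6, was the single coding os gene above its parent, with 9 to 17 counts per library and none for Slc7a6. In the 51 shared-exon pairs with a noncoding os transcript, the os symbol was above in 38, with a median log2 ratio of 3.78. Their parents had a median of 55 counts over the 6 libraries and the os transcripts a median of 637.

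The comparison of KO with WT asks whether loss of STIM1 goes with a change in these transcripts, and no os transcript passed the test. Enough counts for edgeR's quasi-likelihood test were present for 60 of the 154, beside 5320 of all genes, and the 60 are those that passed that filter. At a Benjamini-Hochberg adjusted p under 0.05 the test called 0 of the 60, with 0.0% called among all genes tested, and the lowest adjusted p of an os transcript was 0.987. DESeq2 and limma-voom also called 0 of all genes. At an unadjusted p under 0.05 it took 1 os transcript, higher in KO, where 4.62% of all genes tested did so (1.58% higher and 3.05% lower in KO). Of the 48 parents tested, 0 were called and 0 had an unadjusted p under 0.05.

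That transcript was Bcas1os2, inside Bcas1, a gene of newly myelinating oligodendrocytes. It was counted 47, 52 and 62 times in WT and 91, 72 and 62 times in KO, or 78.7 ± 8.67 CPM (SD, n = 3) and 107 ± 8.29 CPM (SD, n = 3), and on the CPM scale the groups did not overlap. The log2 fold change was 0.44 (standard error 0.19), at an adjusted p of 0.987 by edgeR's quasi-likelihood test. Bcas1 was counted 16, 21 and 22 times in WT and 37, 22 and 26 times in KO, and the log2 ratio of the pair averaged 1.42 ± 0.18 (SD over 6 libraries). Among the 6 oligodendrocyte markers, 3 averaged 10 or more counts, with a summed level of 104 to 121 CPM in WT and 91.2 to 125 CPM in KO, and their part in this value was not tested.

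Groups did not overlap for 5 of the 60 os transcripts, 3 higher and 2 lower in KO, where 10.7% of all genes tested showed this (4.83% higher and 5.85% lower). The others besides Bcas1os2 were Brip1os and Acss2os on the higher side and Cyp4x1os and Slc7a6os on the lower. Brip1os averaged 857 ± 28.6 CPM over the WT libraries and 940 ± 33.1 CPM over the KO libraries (SD, n = 3 for each), with a log2 fold change of 0.13 (standard error 0.12). Acss2os averaged 237 ± 10.1 and 286 ± 33.5 CPM, a log2 fold change of 0.27 (standard error 0.14). Cyp4x1os, opposite a cytochrome P450 gene expressed in brain, had 21, 32 and 27 counts in WT and 19 in each KO library. It averaged 39.2 ± 8.60 and 27.6 ± 3.17 CPM, a log2 fold change of -0.52 (standard error 0.28). Slc7a6os averaged 23.5 ± 0.712 and 18.6 ± 4.07 CPM, a log2 fold change of -0.33 (standard error 0.33). Leaving out 1 library moved 3 of these by over 1.5 times: Acss2os to 0.16 and Slc7a6os to -0.20 without KO replicate 3, and Cyp4x1os to -0.34 without WT replicate 2.

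For the 25 os transcripts of largest count the data bounded any difference more closely. Their log2 fold changes ran from -0.08 to 0.27 with standard errors of 0.11 to 0.19. Grin1os averaged 10794 ± 189 CPM over the WT libraries and 11375 ± 743 CPM over the KO libraries (SD, n = 3 for each), with a log2 fold change of 0.07 (standard error 0.11), and its groups overlapped. It was 0.02 without KO replicate 2 and 0.11 without KO replicate 3. Among the less abundant, those with the next lowest p on the higher side were Pcsk2os2 (0.38, standard error 0.18), Bach2os opposite a transcription factor gene of lymphocytes (0.42, 0.26), St8sia3os opposite a sialyltransferase gene (0.47, 0.32) and Tmem51os1 (0.62, 0.47). On the lower side they were Slc36a1os, next to a lysosomal amino acid transporter gene (-0.33, 0.22), Toporsos (-0.41, 0.29), Chd3os, near a chromatin remodeller of the NuRD complex (-0.52, 0.37), and Atxn7l1os2 (-0.26, 0.24). All of these groups overlapped between genotypes. Single libraries set much of the size of some. Tmem51os1 was 0.19 without WT replicate 2 and 1.25 without WT replicate 3. Chd3os was -0.88 without WT replicate 1, -0.26 without WT replicate 3 and -0.30 without KO replicate 2. Atxn7l1os2 was -0.45 without KO replicate 2 and -0.06 without KO replicate 3, and Slc36a1os -0.52 without KO replicate 1 and -0.16 without KO replicate 2. Toporsos was -0.21 without WT replicate 2 and Pcsk2os2 0.23 without KO replicate 1.

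Small differences lay more often above 0 than below, and how many did varied with the library sizes used and with single libraries. Of the 60 tested os transcripts, 43 had a log2 fold change above 0 and 17 below, with a median of 0.08. The median was 0.0019 for all genes tested and 0.03 for the 48 parents. With library sizes set by all uniquely aligned reads, 35 of 60 were above 0. The os median was then 0.03 and that of all genes -0.05, so both moved down. With DESeq2 45 of the 60 were above 0, and with limma-voom 43. Without KO replicate 3, 33 of 61 were above 0 with a median of 0.01, and without WT replicate 1, 34 of 61 with a median of 0.03.

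**Figure D4:**
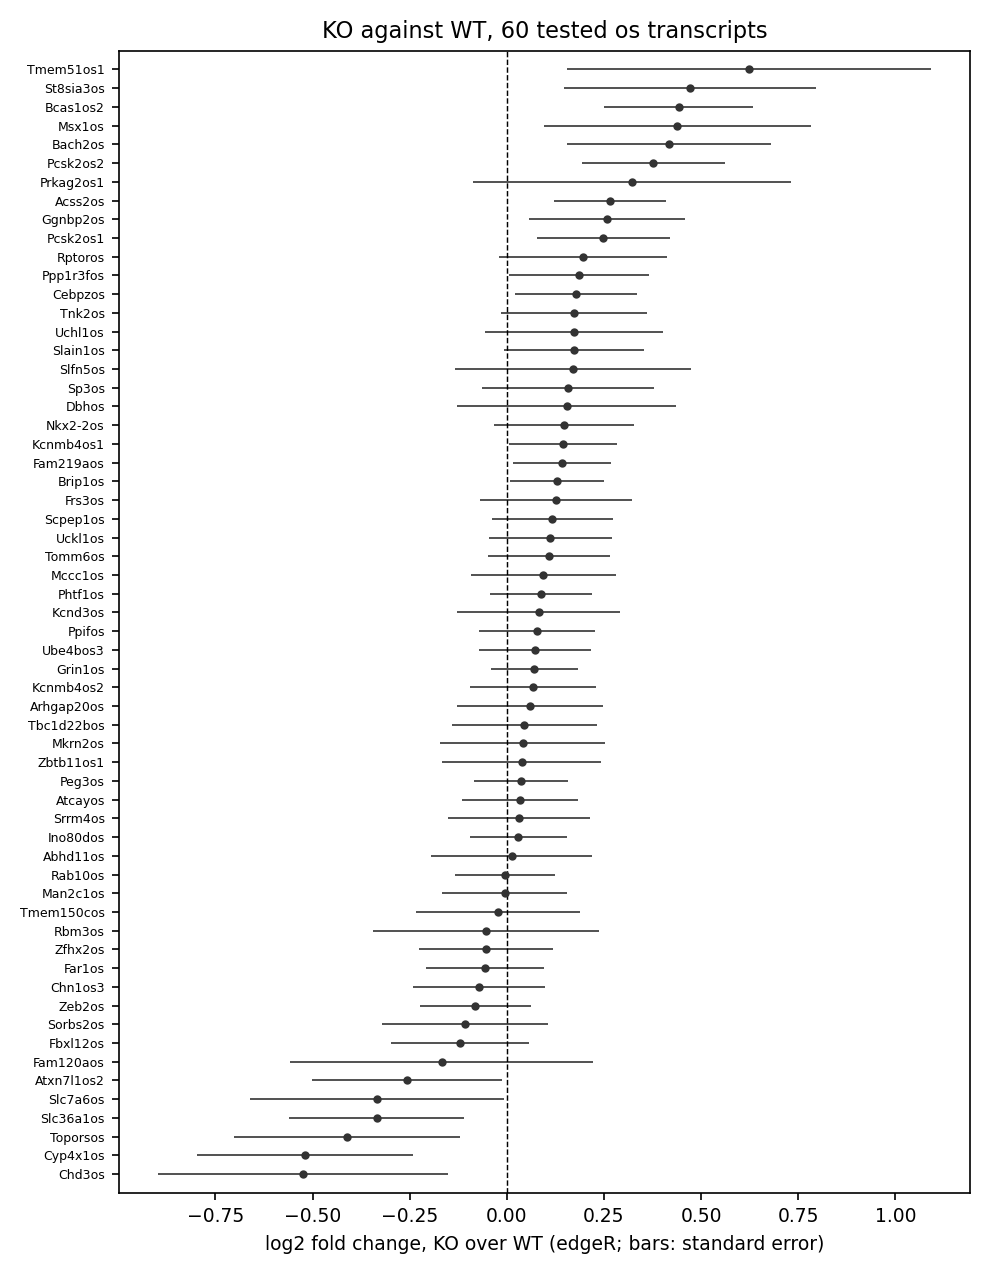
log2 fold change of KO over WT for the 60 os transcripts that passed the count filter, ordered by value, with standard errors as bars, from edgeR. The values run from -0.52 for Chd3os to 0.62 for Tmem51os1, and none passed the adjusted threshold.

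No pair's os to parent ratio, which needs no library size, passed an adjusted test between the genotypes. An exact two-sided permutation test of 3 against 3 cannot go below p = 0.1. Of the 85 pairs, 8 reached it (9.41%), near the share of 0.1 that would do so with no genotype difference. Of these, 6 had the higher ratio in KO, and the lowest p adjusted over the 85 was 0.944. The 6 were the pairs of Brip1os, Srrm4os, Arhgap20os, Ppp1r3fos, Sp3os and Prkag2os1, with differences of 0.45 to 1.63 on the log2 scale, and the other 2 those of Atcayos (-0.53) and Lppos (-1.12). The ratio was higher in KO in 39 pairs and lower in 46, with a median difference of -0.03 on the log2 scale. Where both genes had 60 or more summed counts, as in 30 pairs, the median difference was -0.02, with 13 higher and 17 lower.

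The largest differences among those 30 pairs were read library by library. The log2 ratio of Brip1os to Brip1 was 4.84, 4.58 and 4.75 in WT and 5.57, 5.14 and 4.88 in KO, a difference of 0.47 with no overlap (exact permutation p = 0.1). That of Ggnbp2os to Ggnbp2, a zinc finger gene, was 1.72, 1.91 and 3.08 in WT and 2.74, 3.03 and 3.42 in KO, a difference of 0.82 (exact permutation p = 0.3). That of Chn1os3 to Chn1 was 6.37, 6.87 and 6.23 in WT and 7.17, 7.02 and 6.80 in KO, a difference of 0.50 (exact permutation p = 0.2). On the lower side, Fbxl12os to Fbxl12, an F-box protein gene, was 4.52, 3.67 and 2.35 in WT and 2.52, 2.74 and 2.47 in KO, a difference of -0.94 (exact permutation p = 0.4). WT replicates 1 and 2 were the high ones there and WT replicate 3 was below every KO library. Tomm6os to Tomm6 differed by -0.40 (exact permutation p = 0.3) and Abhd11os to Abhd11, a mitochondrial hydrolase gene, by -0.38 (exact permutation p = 0.4), both with overlapping groups. Leaving out 1 library moved 5 of these 6 differences by over 1.5 times. Fbxl12os went to -0.43 without WT replicate 1 and -1.52 without WT replicate 3, and Tomm6os to -0.19 without KO replicate 1 and -0.61 without KO replicate 3. Abhd11os went to -0.13 without WT replicate 2, -0.62 without WT replicate 3 and -0.19 without KO replicate 2. Brip1os went to 0.29 without KO replicate 1, and Ggnbp2os to 1.25 without WT replicate 3.

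**Figure D5:**
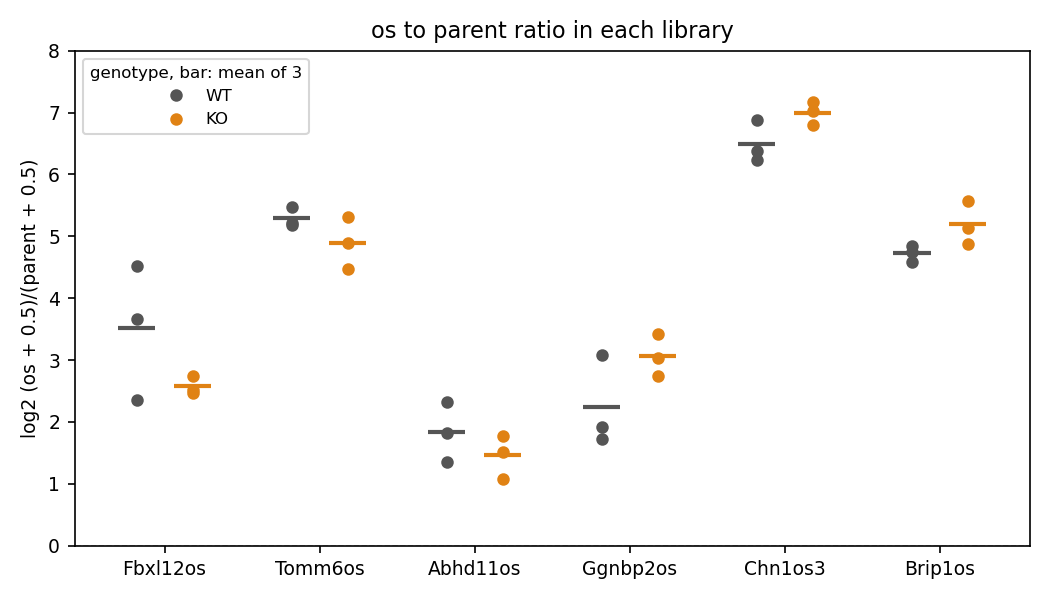
log2 ratio of os to parent counts, with 0.5 added to each, in each WT library (grey) and KO library (orange) for the 6 pairs with the largest genotype differences, 3 per direction, among pairs with 60 or more counts in both genes; bars are means of 3. In the Brip1os pair alone the genotypes do not overlap, with WT at 4.58 to 4.84 and KO at 4.88 to 5.57.

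The authors' deposited tables gave like values for single os transcripts. In the authors' deposited DESeq table, of 118 os transcripts with a p-value, 2 had one under 0.05, beside 1.86% of all genes: Bcas1os2 at a KO over WT fold of 1.39 (deposited p = 0.0421) and Pcsk2os2 at 1.32 (deposited p = 0.0448). In the authors' deposited edgeR table Bcas1os2 was the only one of 154, with -0.46 as the log2 of WT over KO (deposited p = 0.0285), beside 1.90% of all genes. These deposited p-values are unadjusted.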

How the data were processed

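Per the labels' protocols, libraries were made from total RNA with a TruSeq mRNA kit and read once per fragment, for 50 bases, on an Illumina instrument. The submitters' processing notes name TopHat, HTSeq 0.9.1, DESeq, edgeR and the build GRCm38 (mm10), and no source used here gives the annotation or the strand setting. The deposited files hold the authors' whole-number counts per gene symbol; rows naming no gene (98.8% of uniquely aligned reads) were left out. The authors also deposited a ratio (fold change), a log2 ratio and p-values, used for description only.

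Members, parents' groups and lists were chosen with earlier results of these data known; 1 group of parents is not reported here. KO was compared with WT by the quasi-likelihood test of edgeR 4.0.16 (R 4.3.3), with TMM factors, filterByExpr at a minimum count of 10 and no covariate, over all genes with Benjamini-Hochberg adjustment; the standard error is implied by the F statistic. Self-tests on simulated counts were run. Pairs with 60 or more summed counts over the 6 libraries were read, as log2 ratios with 0.5 added, and tested with exact two-sided permutation tests in SciPy 1.17.1. Positions are from GENCODE M21 on GRCm38, where 148 of 154 symbols matched, 4 by an older symbol.

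The text names members with an adjusted call, the 25 of largest count, the 5 of lowest p per direction, the 5 of highest and of lowest share, and the 3 of largest ratio difference per direction; the other members named were chosen after their values were seen. Alternatives were DESeq2 1.42.0, limma-voom (limma 3.58.1), other normalisations, filters, minimums and added counts, a replicate block and leaving out libraries.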

Additional observations from a re-analysis of the deposited data

Results flagged for a closer look

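Reads outside the gene counts were flagged because they form a signal that no comparison used: on average 98.8% of the uniquely aligned reads of a library were assigned to no gene. In no library did reads ambiguous between genes exceed 0.00492%. What the unassigned reads hold was not tested.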

How the results depend on the processing

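For all genes, edgeR's quasi-likelihood test called 0; with no filter on low counts it called 6 and without both replicates numbered 3 it called 1, and leaving out each library in turn gave 0 to 1, with 1 only without WT replicate 3. None of these calls was an os transcript in any of the 14 alternatives, and the 14 named log2 fold changes kept their sign in all 196 refits but not their size, as with Tmem51os1 at 0.19 to 1.25 and Grin1os at 0.02 to 0.11 when each library was left out. With 120 or more summed counts per pair the median log2 ratio was 2.96, and per kilobase 3.21, against 1.78; leaving out each library gave 1.79 to 1.85 and 48 to 50 pairs with the os transcript above in every library. At other minimums 51 (30 or more) and 47 (120 or more) pairs had this order. The labels do not say that replicates with the same number pair. Their deviations correlated at 0.143, 0.0795 and 0.122, and those of unequal numbers at -0.113 to -0.0111. Each library's counts also differed least from the same number of the other genotype. The chi-square per degree of freedom was 3.03, 2.30 and 2.49 there, against 3.16 to 4.99 for all other library pairs. Tsix and Xist were likewise low in replicate 3 of both genotypes, so leaving out 1 replicate 3 library unbalances the genotypes in that respect. The main tests took no account of such pairing by number. With a replicate block edgeR's quasi-likelihood test called 0 genes, 287 at an unadjusted p under 0.05. For the pair ratios the block leaves the difference as it is by construction (Brip1os 0.47, exact sign-flip permutation p = 0.25, the smallest possible for 3 pairs). Parents with few counts limit the ratios: in 85 pairs the median SD over libraries was 0.61 on the log2 scale.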

Other observations

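Several os transcripts also lie opposite the exons of a gene other than the one they are named for. Phtf1os shares 2101 exonic bases with Rsbn1, which had 246 summed counts against 7476. Tomm6os shares 1221 bases with Prickle4, a relative of planar polarity genes, which had 523 against 3995. Ino80dos shares 489 bases with Ndufs1, the largest subunit of respiratory complex I, which had 511 against 8810. In the other direction, Atad3aos shares 153 bases with Vwa1, a matrix protein gene, which had 247 against 2.

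The same spelling rule applied to the ending as gave 4 symbols, of which Hras and Vipas39 match Hr and Vip by spelling alone. The other 2, Dlx1as and Znrd1as, had 2 and 12 summed counts over the 6 libraries, and their parents Dlx1 and Znrd1 had 0 and 2.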
